A study of Mus musculus with 15 samples.

Results

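Chemokines are small secreted or membrane-tethered proteins that guide leukocytes along and through vessel walls, and chemokine receptors are the G protein-coupled receptors that read them. The genes described here are all those whose single symbol in the array's annotation names a CC, CXC, XC or CX3C chemokine ligand or receptor by its systematic number. There were 51 such genes, 34 ligands and 17 receptors, among 19938 genes measured under a single symbol. For a gene with several probe sets, the probe set with the highest mean was used. Genes whose probe sets carry several symbols, which includes the Ccl21 and Ccl27 copies, are not members by this rule.

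The microvascular endothelial cells came from Tie2-GFP (FVB background) animals aged 8 to 12 weeks, with both sexes in each pool, and from 3 tissues, brain, heart and liver. All 3 groups carry the same transgene, green fluorescent protein under the Tek (Tie2) promoter, and cells were sorted on that fluorescence alone, so the groups contain whichever cells the promoter marks. Each tissue had 5 arrays, and each array held pooled RNA from 6 mice for brain, 4 mice for heart and 2 mice for liver. Brain and heart were digested with collagenase for 60 min at 37 °C and liver with dispase for 60 min at room temperature, so tissue, enzyme, digestion temperature and pool size cannot be told apart. The study asked which genes set each endothelium apart from the other two.

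Endothelial cells take part in leukocyte traffic from both sides. They make ligands themselves, carry ligands made by other cells on the heparan sulfate of their surface, and express atypical receptors that bind chemokines without G protein signalling and take them up. In the liver the sinusoidal endothelium is fenestrated, borders directly on Kupffer cells, the resident macrophages of the liver, and is known as a site where CXCR3-bearing and CXCR6-bearing lymphocytes are held. In the brain, Cxcl12 and Ccl19 are known as chemokines of the vessel wall, and neuronal Cx3cl1 is known as the ligand of the microglial receptor Cx3cr1.

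Values are log2 intensities normalised by RMA (robust multi-array average), so a difference of 1 is a factor of 2, and RMA compresses large differences. Array medians lay between 5.98 and 6.11 and arrays of the same tissue correlated across genes at 0.978 to 0.993. Tek lay between 10.97 and 11.62 on every array. Over 18 pan-endothelial genes the brain mean was 10.24, the heart mean 10.13 and the liver mean 10.19. Olfactory receptor genes, which endothelium is not known to use, give a guide to the background of the array. Over 1015 of them, the 95th percentile was 5.77 in heart, 5.66 in brain and 5.64 in liver, called the olfactory level below. Where the lower tissue of a called difference had a mean no higher than this level, the fold is given only as a bound against it ("at least"), or not at all. Markers of other cells were also present. All 10 cardiomyocyte markers and 6 of 10 fibroblast markers were higher in heart, and 8 of 10 hepatocyte markers, all 7 Kupffer cell markers and 6 of 11 macrophage markers were higher in liver. In such bulk samples, fewer cells of a type and less RNA per cell cannot be told apart.

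A gene is said below to be higher or lower in a tissue when it differed in the same direction from each of the others at an adjusted p under 0.05. By that rule 15 of the 51 genes (29.4%) stood apart in at least 1 tissue, against 25.5% of all genes. In liver 9 members were higher, where 10.4% of all genes were higher, and 3 were lower, where 5.64% of all genes were lower. Centring the arrays on pan-endothelial genes changed these counts to 5 higher and 5 lower, and a filter that leaves out genes with a mean under 6 gave 5 higher. The share of all genes was not counted under either setting. In brain 3 members were higher (4.7% of all genes) and 2 were lower (2.82%). In heart 1 member was higher (3.73%) and 1 was lower (3.27%). The share of members was near the background in brain and heart, and in liver 17.6% of members were higher. Across the 51 members, the median log2 difference of a tissue from the mean over both remaining tissues was -0.07 for brain, 0.01 for heart and 0.03 for liver, and across all genes it was -0.02, 0.02 and -0.02. Of the 15 genes, 11 stood apart in a single tissue and 4 in 2 tissues. They were Cxcl9, Cxcl10, Cxcl11, Cxcl16, Cx3cl1, Cxcl12, Ccl19, Cxcl13, Ccl5, Ccl6, Ccl24, Ccr3, Ccr4, Cxcr4 and Cxcr6.

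Between pairs of tissues, 4 members were higher and 3 lower in brain than in heart, where 8.29% and 7.11% of all genes were. In brain compared with liver 6 were higher and 12 lower, where 11.1% and 14% of all genes were. In heart compared with liver 3 were higher and 11 lower, where 11.5% and 16.3% of all genes were, and 7 were lower without heart array 1 or without liver array 4. This last split depends on the scale: centring each array on the pan-endothelial genes, which moved the median heart minus liver difference of all genes by 0.31, left 27 members higher in heart than in liver and 5 lower. The same centring left brain minus liver with 7 members lower in brain. After centring, the median heart minus liver difference of all genes was 0.345. The share of all genes called was not counted after centring, so these counts have no background beside them.

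**Figure D1:**
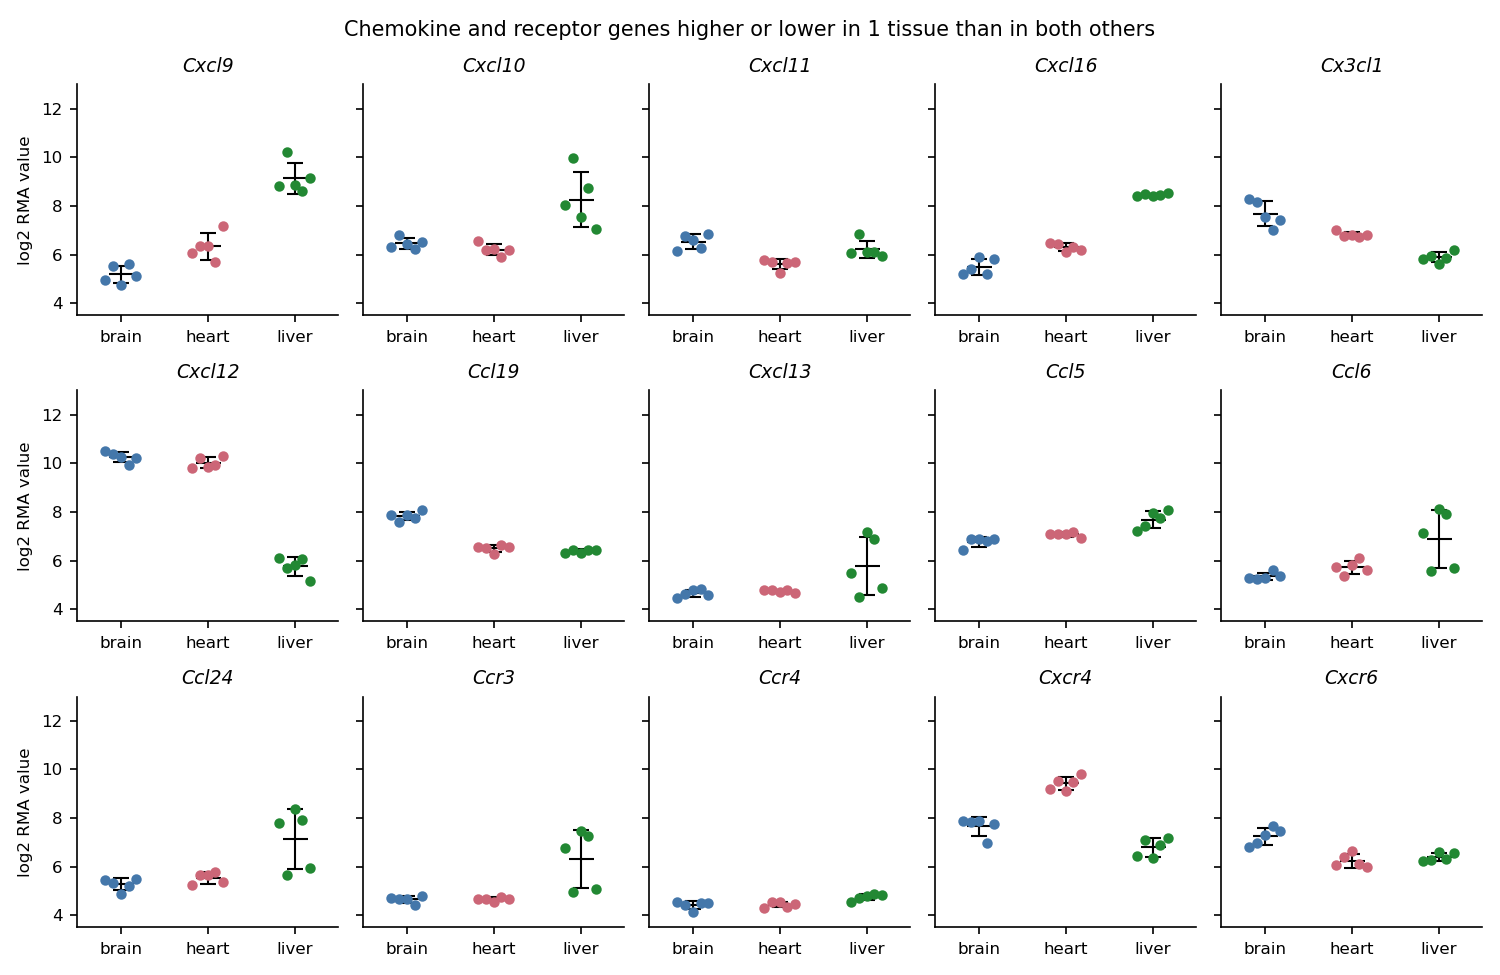
Log2 RMA values of the 15 chemokine and receptor genes that differed between 1 tissue and both others. Points are the 5 arrays of brain, heart and liver, and bars give the mean ± SD. Cxcl9, Cxcl10 and Cxcl16 are high on all 5 liver arrays, Cxcl12 is low on all of them, and Ccl24, Ccl6, Ccr3 and Cxcl13 spread widely within liver.

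Sequences upstream of 4 of these genes are given because the genes moved in different directions: Cxcl9 and Cxcl10 were higher in liver, Ccl19 was higher in brain and Cxcl12 was lower in liver. Each line holds the 250 bases before the start of transcription, 5′ to 3′ on the strand of the gene, from RefSeq on assembly GRCm38.p6, which is not of the FVB strain. The capitals mark matches to 1 of 4 motifs that were searched on both strands, the kB-like GGG, any 3 bases, TTCC, the ISRE-like TTTC, any 2 bases, TTTC, the GAS-like TTC, any 3 bases, GAA, and TATAAA. A match on the opposite strand is printed as it reads on the strand of the gene.
Cxcl9: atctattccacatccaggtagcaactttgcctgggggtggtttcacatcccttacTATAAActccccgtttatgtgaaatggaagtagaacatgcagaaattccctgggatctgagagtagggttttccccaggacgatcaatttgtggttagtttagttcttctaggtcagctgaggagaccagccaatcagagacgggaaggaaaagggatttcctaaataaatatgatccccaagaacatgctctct
Cxcl10: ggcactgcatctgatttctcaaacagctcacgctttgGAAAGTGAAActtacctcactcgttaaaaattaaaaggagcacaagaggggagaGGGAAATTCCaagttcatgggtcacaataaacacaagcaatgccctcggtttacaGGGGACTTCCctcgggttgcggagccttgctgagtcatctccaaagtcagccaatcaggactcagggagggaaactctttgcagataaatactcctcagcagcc
Ccl19: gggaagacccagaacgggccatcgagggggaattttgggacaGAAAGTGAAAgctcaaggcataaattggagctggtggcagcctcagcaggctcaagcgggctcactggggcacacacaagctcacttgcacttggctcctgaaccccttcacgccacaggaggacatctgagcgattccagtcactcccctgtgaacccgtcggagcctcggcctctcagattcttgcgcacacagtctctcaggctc
Cxcl12: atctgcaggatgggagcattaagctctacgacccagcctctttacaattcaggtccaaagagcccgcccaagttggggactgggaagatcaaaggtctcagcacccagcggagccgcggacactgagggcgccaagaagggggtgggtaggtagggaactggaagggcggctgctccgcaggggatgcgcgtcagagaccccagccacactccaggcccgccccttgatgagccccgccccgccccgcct
The Cxcl9 stretch is chr5:92328080-92328329 on the minus strand, and Cxcl10 lies on the same strand at chr5:92348890-92349139. The Ccl19 stretch is chr4:42756366-42756615 on the minus strand, and the Cxcl12 stretch is chr6:117168285-117168534 on the plus strand. Cxcl10 holds kB-like matches at 159 to 150 and 104 to 95 bases before the start, and an ISRE-like match on the opposite strand at 213 to 204 bases. Ccl19 holds an ISRE-like match of the same letters at 208 to 199 bases. Cxcl9 holds TATAAA at 195 to 190 bases, and none of the 4 motifs was found in these 250 bases of Cxcl12. Across all 32851 promoters of the table, 4.65% held a kB-like match, 2.98% an ISRE-like match, 7.02% a GAS-like match and 12.4% TATAAA. Of 39 promoters of 37 matched members, 9 held a kB-like match (Ccl1, Ccl9, Ccl20, Ccr3, Ccr6, Cxcl1, Cxcl2, Cxcl3 and Cxcl10) and 3 an ISRE-like match (Ccl19, Cxcl10 and Cxcl14). A GAS-like match was found in 3 (Ccl17, Ccr6 and Cxcl14) and TATAAA in 11. The kB-like group holds Cxcl10 and Ccr3, which were higher in liver, and 7 genes that stood apart in no tissue. The Cxcl12 stretch was 64.4% G and C with 14 CpG dinucleotides and the Cxcl9 stretch 44.4% with 3, around a median of 52.4% and 6 over all promoters. A motif match describes letters and no binding was measured.

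The Cxcr3 ligands Cxcl9, Cxcl10 and Cxcl11, known to be induced by interferon gamma, did not share a pattern. Cxcl9 and Cxcl10 were higher in liver, and Cxcl11 was lower in heart. Cxcl9, an attractant of activated T cells, had log2 values of 8.83, 10.23, 8.87, 8.62 and 9.15 on liver arrays 1 to 5. On the heart arrays it was 6.06, 6.37, 6.37, 5.68 and 7.19, and on the brain arrays 4.94, 5.52, 4.74, 5.60 and 5.13. Every liver array lay above every heart array, and every heart array above every brain array. The liver level was above heart by a log2 difference of 2.81 (SE 0.29, 6.99-fold, adjusted p = 7.73e-07), and brain differed from heart by -1.15 (SE 0.29, at least 1.59-fold lower, adjusted p = 0.00999).

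Cxcl10, another attractant of Cxcr3-bearing T cells, had log2 values of 8.04, 9.96, 7.55, 8.73 and 7.05 on liver arrays 1 to 5. It was 6.30, 6.82, 6.45, 6.24 and 6.53 in brain and 6.56, 6.18, 6.22, 5.91 and 6.17 in heart. The 5 liver arrays spread widely but all lay above the other 10, while brain and heart overlapped. Liver exceeded brain, the nearer tissue, by 1.80 (SE 0.37, 3.48-fold, larger adjusted p = 0.00116). Array 2 held the highest liver value of Cxcl9, Cxcl10 and Cxcl11.

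Cxcl11 had log2 values of 5.79, 5.70, 5.26, 5.68 and 5.68 in heart. It was 6.15, 6.78, 6.60, 6.29 and 6.86 in brain and 6.09, 6.86, 6.10, 6.10 and 5.94 in liver. All heart arrays lay below all others, and brain and liver overlapped. Heart differed from liver by -0.59 (SE 0.17, at least 1.37-fold lower, larger adjusted p = 0.0139). With centring on the pan-endothelial list the call was lost, at a difference of -0.28 (adjusted p = 0.168). Under that centring Cxcl11 was instead higher in brain than in both others. Without liver array 2 it was also higher in brain, and the heart call was kept. The RefSeq table lists Cxcl11 as a transcribed pseudogene in its reference strain and the other 50 members as protein coding. The shared receptor Cxcr3 averaged a log2 value of 5.88 ± 0.21 in liver, 5.84 ± 0.16 in heart and 5.68 ± 0.12 in brain (SD, n = 5) and stood apart in no tissue.

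Other genes of the interferon response moved in both directions. Of 12 measured, 3 were higher and 3 lower in liver, 3 higher and 1 lower in brain, and 2 higher and 1 lower in heart. The shares of all genes were 10.4% and 5.64% in liver, 4.7% and 2.82% in brain and 3.73% and 3.27% in heart. In at least 1 tissue 9 of the 12 stood apart, where 25.5% of all genes did. The list was chosen with earlier results of these data known. Ifit2, an interferon-induced RNA-binding protein, was lower in brain by -1.50 (adjusted p = 1.63e-08) and higher in liver by 0.64 (adjusted p = 0.000234). Ifit1 of the same family was higher in brain by 1.07 (adjusted p = 1.74e-05) and lower in liver by -0.46 (adjusted p = 0.0179). Oas2, a sensor of double-stranded RNA, was higher in heart by 1.10 (adjusted p = 1.1e-06), and Gbp3, an interferon-induced GTPase, was lower in liver by -0.96 (adjusted p = 0.00147). Bst2 and Ifit3 were also higher in liver, and Irf7, Rsad2 and Usp18 made up the others that stood apart.

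The 2 chemokines that are made as membrane proteins on a mucin stalk, Cxcl16 and Cx3cl1, moved in opposite directions. Cxcl16 was higher in liver and lower in brain, and Cx3cl1 was higher in brain and lower in liver. Cxcl16, which also takes up oxidised lipoprotein, had log2 values of 8.40, 8.48, 8.42, 8.46 and 8.53 in liver. It was 6.48, 6.44, 6.11, 6.31 and 6.20 in heart and 5.19, 5.42, 5.89, 5.22 and 5.81 in brain. The liver arrays lay close together and no tissues overlapped. Liver exceeded heart by 2.15 (SE 0.13, 4.44-fold, adjusted p = 3.98e-10), and brain differed from heart by -0.81 (SE 0.13, at least 1.56-fold lower, adjusted p = 0.000152).

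Cx3cl1, also called fractalkine, had log2 values of 8.27, 8.15, 7.55, 7.03 and 7.44 in brain. It was 7.02, 6.77, 6.79, 6.73 and 6.79 in heart and 5.80, 5.95, 5.63, 5.88 and 6.18 in liver. The tissues did not overlap, though brain array 4 lay next to heart array 1. Brain exceeded heart by 0.87 (SE 0.18, 1.83-fold, adjusted p = 0.00262), and liver differed from heart by -0.93 (SE 0.18, 1.91-fold lower, adjusted p = 0.000844). Without liver arrays 1, 3 and 4 the liver difference was -0.75 and missed the threshold (adjusted p = 0.0616).

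The partner receptors of these ligands did not follow them. Cxcr6, the receptor of Cxcl16 on T and NKT cells, had log2 values of 6.80, 6.96, 7.31, 7.69 and 7.46 in brain. It was 6.07, 6.40, 6.66, 6.12 and 5.98 in heart and 6.24, 6.28, 6.60, 6.32 and 6.54 in liver. Cxcr6 was thus highest in brain, where Cxcl16 was lowest, with brain above liver by 0.85 (SE 0.16, 1.8-fold, larger adjusted p = 0.000544). None of the 9 measured T and NK cell markers was higher in brain, where the mean of that list was 4.53 to 4.70 against 4.73 to 4.84 in heart and 4.77 to 5.37 in liver. Cx3cr1, the receptor of Cx3cl1, had log2 values of 7.28, 7.10, 7.11, 7.14 and 7.45 in brain. It was 6.59, 7.08, 6.77, 6.16 and 6.92 in heart and 7.32, 6.76, 7.64, 7.56 and 6.98 in liver, and liver overlapped both other tissues. Its only difference past the threshold was heart below liver, at -0.55 (SE 0.17, adjusted p = 0.0266), and it missed the threshold without any 1 of heart arrays 1 and 4 and liver arrays 1, 3 and 4 (adjusted p up to 0.08). Without all 3 of those liver arrays it was -0.16 (adjusted p = 0.689). Brain exceeded heart by 0.51 (SE 0.17, adjusted p = 0.0595). That difference passed the threshold with the filter on a mean of 6, without heart array 2 and without liver array 2. It also did so without liver arrays 1, 3 and 4 together. With the filter, or without heart array 2 or liver array 2, Cx3cr1 was lower in heart than in both others. Of 7 microglial markers measured, 0 were higher in brain, with a list mean of 5.47 to 5.65 in brain and 5.47 to 5.81 in liver. The brain means of both marker lists lay under the olfactory level of 5.66. The part of such cells in the Cxcr6 and Cx3cr1 values was not tested.

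Among the 9 homeostatic ligands, which are known to place leukocytes in tissues at rest, Cxcl12, Ccl19 and Cxcl13 stood apart in at least 1 tissue. Of all genes 25.5% did. Cxcl12, the ligand of Cxcr4 and Ackr3 that retains haematopoietic cells in bone marrow, showed the largest difference of all 51 members. Its log2 values were 10.52, 10.39, 10.27, 9.94 and 10.22 in brain and 9.82, 10.24, 9.83, 9.94 and 10.31 in heart. In liver they were 6.09, 5.68, 5.83, 6.05 and 5.15. Brain and heart overlapped and liver lay far below both. Liver differed from heart by -4.27 (SE 0.16, 19.3-fold lower, larger adjusted p = 1.14e-12), and without liver arrays 1, 3 and 4 by -4.61 (adjusted p = 3.88e-10).

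Both receptors of Cxcl12 were also lower in liver. Cxcr4, which couples to G proteins and marks the tip cells of growing vessels, had log2 values of 9.22, 9.53, 9.10, 9.49 and 9.81 in heart. It was 7.89, 7.82, 7.89, 6.97 and 7.76 in brain and 6.44, 7.12, 6.35, 6.88 and 7.17 in liver. All heart arrays lay above all others, and brain array 4 fell within the liver range. Heart exceeded brain by 1.76 (SE 0.20, 3.39-fold, adjusted p = 3.46e-06), and liver differed from brain by -0.87 (SE 0.20, 1.83-fold lower, adjusted p = 0.00262). The difference between liver and brain was -0.52 (adjusted p = 0.166) without liver arrays 1, 3 and 4. Cardiomyocyte markers also ran high in heart, with list means of 9.94, 8.87, 9.50, 8.16 and 8.22 on heart arrays 1 to 5 against 5.66 to 6.08 elsewhere. Of 10 fibroblast markers 6 were higher in heart, and of 10 pericyte and smooth muscle markers 3 were. The part of any such cells in the heart level of Cxcr4 was not tested.

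Ackr3, an atypical receptor that takes up Cxcl12, had log2 values of 8.75, 8.47, 8.73, 9.06 and 8.74 in brain. It was 8.59, 8.07, 8.38, 8.37 and 8.32 in heart and 5.64, 5.88, 6.44, 5.93 and 5.65 in liver. The liver arrays lay below all others, as for Cxcl12. Liver differed from heart by -2.44 (SE 0.14, 5.43-fold lower, larger adjusted p = 3.91e-10).

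Ccl19, the ligand of Ccr7 that draws T cells and dendritic cells into lymphoid tissue, was higher in brain. Its log2 values were 7.89, 7.59, 7.87, 7.74 and 8.07 in brain. They were 6.57, 6.53, 6.28, 6.65 and 6.57 in heart and 6.33, 6.43, 6.30, 6.45 and 6.43 in liver. Brain lay above the other tissues on every array, and heart and liver overlapped. Brain exceeded heart by 1.31 (SE 0.09, 2.49-fold, larger adjusted p = 7.45e-09). The 5 probe sets annotated as Ccl19 were all higher in brain, by 1.31, 1.69, 1.81, 1.81 and 1.91, and 2 of them held the same values on every array. RefSeq lists near copies of the gene beside it, so the share of each copy in these values is uncertain. Ccr7, the receptor, was 6.77 ± 0.22, 6.95 ± 0.07 and 6.76 ± 0.17 in brain, heart and liver (SD, n = 5) and stood apart in no tissue.

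Cxcl13, which guides B cells through Cxcr5, had log2 values of 5.50, 4.50, 7.17, 6.91 and 4.89 in liver. It was 4.48, 4.62, 4.79, 4.84 and 4.60 in brain and 4.79, 4.79, 4.72, 4.78 and 4.66 in heart. Liver arrays 1, 3 and 4 lay well above the other tissues, array 5 just above them and array 2 within the brain range. The mean of liver was above heart by 1.04 (SE 0.38, at least 1.02-fold, larger adjusted p = 0.0486). The call ended without any 1 of 13 arrays, all those of brain and heart and liver arrays 1, 3 and 4, with adjusted p up to 0.135. Without these 3 liver arrays together the difference was 0.03 (adjusted p = 0.936). Cxcr5 was 3.88 ± 0.19, 3.86 ± 0.19 and 3.80 ± 0.25 (SD, n = 5). The other homeostatic ligands, Cxcl14, Cxcl17, Ccl17, Ccl22, Ccl25 and Ccl28, stood apart in no tissue.

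Of the 15 inflammatory CC and XC ligands, 3 were higher in liver, where 10.4% of all genes were. None was higher or lower in brain or heart. Ccl5, an attractant of T cells, NK cells and monocytes, had log2 values of 7.21, 7.43, 7.95, 7.76 and 8.07 in liver. It was 7.09, 7.09, 7.08, 7.18 and 6.94 in heart and 6.43, 6.91, 6.88, 6.80 and 6.88 in brain. No tissues overlapped, though the lowest liver and highest heart values lay close. Liver exceeded heart by 0.61 (SE 0.14, 1.52-fold, larger adjusted p = 0.00319). Centred on the pan-endothelial list, the difference was 0.30 (adjusted p = 0.144). Of 9 T and NK cell markers measured, 3 were higher in liver, Cd3d, Cd3g and Gzma, by 0.48, 1.46 and 0.82. Their heart and brain means lay under the olfactory level. The liver means of Cd3d (4.63) and Gzma (5.38) did too, and that of Cd3g was 5.80. The part of such cells in the Ccl5 difference was not tested.

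Ccl24, an eosinophil attractant and ligand of Ccr3, had log2 values of 7.79, 5.67, 8.37, 7.93 and 5.95 in liver. It was 5.46, 5.34, 4.89, 5.19 and 5.51 in brain and 5.22, 5.66, 5.66, 5.77 and 5.36 in heart. Liver arrays 1, 3 and 4 stood clear of all others, array 5 lay just above them and array 2 fell within the heart range. Liver exceeded heart by 1.61 (SE 0.40, at least 2.60-fold, larger adjusted p = 0.00552). Ccl6, a macrophage-derived CC ligand, was 7.16, 5.56, 8.11, 7.92 and 5.69 in liver, 5.30, 5.24, 5.30, 5.61 and 5.38 in brain and 5.73, 5.37, 5.84, 6.11 and 5.62 in heart. It had the same 3 high arrays, and liver exceeded heart by 1.15 (SE 0.39, at least 2.18-fold, larger adjusted p = 0.0344). The call of Ccl6 ended without any 1 of 7 arrays, liver arrays 1, 3 and 4 and heart arrays 1, 2, 3 and 5, with differences of 0.85 to 1.18 and adjusted p up to 0.102, and with centring (0.84, adjusted p = 0.0537).

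Ccl2, the main monocyte attractant, stood apart in no tissue. Its log2 values were 6.11, 6.58, 6.46, 7.09 and 5.88 in liver, 6.53, 6.49, 5.67, 6.10 and 5.95 in heart and 5.93, 5.61, 5.49, 5.70 and 5.72 in brain, and every tissue overlapped another. Brain differed from liver by -0.73 (SE 0.20, adjusted p = 0.00952), and without liver arrays 1, 3 and 4 by -0.54 (adjusted p = 0.139). Its receptor Ccr2 had a log2 difference between brain and liver of -0.17 (adjusted p = 0.2). Xcl1 and Ccl9 were also lower in brain than in liver, by -0.55 (adjusted p = 0.00915) and -0.58 (adjusted p = 0.00262), without standing apart from both tissues. With centring, the differences of Ccl2, Xcl1 and Ccl9 missed the threshold, and Ccl9 lay under the olfactory level in every tissue. Ccl3 had a similar set of high liver arrays to Ccl6, with 6.45, 5.09, 6.06, 7.25 and 5.31, and no difference past the threshold. The other 8 ligands of this group, Ccl1, Ccl4, Ccl7, Ccl8, Ccl11, Ccl12, Ccl20 and Ccl26, had no difference past the threshold between any tissues.

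The 5 neutrophil-directed CXC ligands, Cxcl1, Cxcl2, Cxcl3, Cxcl5 and Cxcl15, stood apart in no tissue. Cxcl1 had log2 values of 8.12, 8.00, 8.05, 7.96 and 8.05 in brain. It was 9.14, 7.99, 8.01, 7.92 and 7.47 in heart and 7.64, 8.30, 7.14, 8.16 and 7.91 in liver. The brain arrays lay close together, and heart array 1 lay above all others. Cxcl2 was also highest on that array, at 7.31 against 4.85 to 5.98 on the other heart arrays. The mean of 14 immediate-early genes, which rise within minutes of a stimulus such as tissue dissociation, was 9.72 on heart array 1 and 7.41 to 8.53 on the others, and its part in these values was not tested. Of 15 measured targets of NF-kB, the factor known to induce Cxcl1 and Cxcl2 in inflammation, Ptgs2, Vcam1 and Nfkbia were higher in brain, by 4.26, 1.49 and 0.78, and Ptgs2 was lower in liver. Of all genes, 4.7% were higher in brain and 5.64% lower in liver. The receptor Cxcr2 was 3.68 ± 0.09, 3.75 ± 0.09 and 4.03 ± 0.39 in brain, heart and liver (SD, n = 5), with no difference past the threshold.

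Of the 17 receptors, Ccr3, Ccr4, Cxcr4 and Cxcr6 stood apart in at least 1 tissue, where 25.5% of all genes did. Ccr3, the eotaxin receptor of eosinophils, had log2 values of 6.78, 4.97, 7.48, 7.26 and 5.08 in liver. It was 4.70, 4.65, 4.68, 4.42 and 4.81 in brain and 4.67, 4.66, 4.55, 4.77 and 4.67 in heart. Every liver array lay above the other tissues, with arrays 1, 3 and 4 far above. Liver was above heart by 1.65 (SE 0.38, at least 1.46-fold, larger adjusted p = 0.00299). Of its ligands, Ccl11 and Ccl26 stood apart in no tissue.

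Ccr4, a receptor of skin-homing and regulatory T cells, had log2 values of 4.56, 4.72, 4.78, 4.89 and 4.82 in liver, 4.30, 4.56, 4.53, 4.34 and 4.48 in heart and 4.55, 4.41, 4.12, 4.52 and 4.52 in brain. The mean of each tissue lay under the olfactory level, so the differences are between readings in the background range. The liver reading exceeded that of heart by 0.31 (SE 0.09, larger adjusted p = 0.0184), and their ranges touched. Without heart array 1 or liver array 4 it missed the threshold narrowly (adjusted p = 0.0501 and 0.0502), and centred on the pan-endothelial list the difference was -0.0009 (adjusted p = 0.995). Its ligands Ccl17 and Ccl22 stood apart in no tissue. Ccr9, a receptor of gut-homing T cells, was higher in brain than in liver by 0.34 (adjusted p = 0.0261) and was not told from heart. Its mean also lay under the olfactory level in every tissue. The difference missed the threshold without any 1 of brain arrays 3, 4 and 5 and liver array 4. It also did so without liver arrays 1, 3 and 4 together. The other receptors, Ccr1, Ccr2, Ccr6, Ccr7, Ccr8, Ccr10, Cxcr1, Cxcr2, Cxcr3, Cxcr5 and Xcr1, had no difference past the threshold between any tissues.

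In all 3 tissues, 22 of the 51 members had means no higher than the olfactory level, and of these Ccr4 alone stood apart in a tissue. They were Ccl8, Ccl9, Ccl12, Ccl17, Ccl20, Ccl22, Ccl26, Ccl28, Ccr1, Ccr2, Ccr4, Ccr6, Ccr8, Ccr9, Cxcl3, Cxcl5, Cxcl14, Cxcl15, Cxcr1, Cxcr2, Cxcr5 and Xcr1. Of the 29 members above the level in at least 1 tissue, 14 stood apart. No member was left out of the test on this basis.

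**Figure D2:**
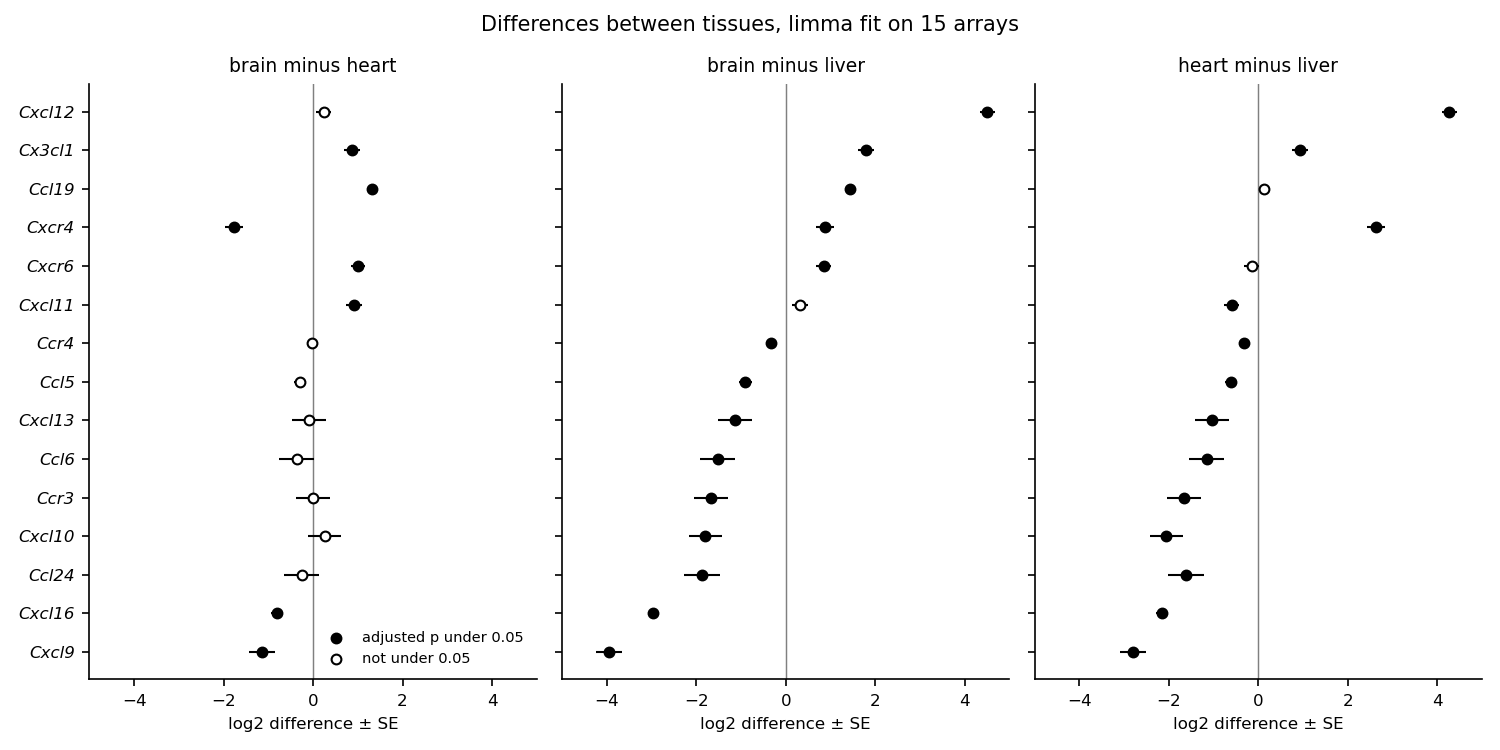
Log2 differences between pairs of tissues with the SE of the limma fit on 15 arrays, for the 15 genes of the plot of values by tissue. Filled points have an adjusted p under 0.05. Cxcl12 lies farthest to the right in both contrasts with liver, at 4.51 and 4.27, and Cxcl9 lies farthest to the left in all but the contrast of brain with heart, where Cxcr4 does.

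The liver genes fell into those that varied between liver arrays with macrophage markers and those that did not. The mean of the 7 Kupffer cell markers was 7.48, 5.73, 8.25, 7.93 and 5.49 on liver arrays 1 to 5, against 4.69 to 4.93 in brain and 4.81 to 5.03 in heart. Vsig4, the complement receptor of Kupffer cells, was 10.23, 7.57, 10.64, 10.70 and 5.29 on the same arrays. The 11 macrophage markers measured had means of 7.65, 6.00, 7.99, 7.77 and 5.83. Ccl24, Ccl6, Ccr3, Cxcl13 and Ccl3 were highest on the 3 arrays where these markers were highest. Cxcl16 and Ccl5 were not, and Cxcl9 and Cxcl10 were highest on array 2.

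Without liver arrays 1, 3 and 4, chosen on the Kupffer cell markers after the data were seen, 5 of the 9 liver-high members kept their call. These were Cxcl9 at 3.35 (adjusted p = 1.08e-05), Cxcl10 at 2.04 (adjusted p = 0.00991), Cxcl16 at 2.20 (adjusted p = 7.87e-07), Ccl5 at 0.68 (adjusted p = 0.00929) and Ccr3 at 0.36 (adjusted p = 0.0312). Ccl24 was then at 0.28 (adjusted p = 0.377), Cxcl13 at 0.03 (adjusted p = 0.936), Ccl6 at -0.11 (adjusted p = 0.764) and Ccr4 at 0.33 (adjusted p = 0.0948). The difference of Ccr3 shrank from 1.65 to 0.36. On both remaining liver arrays Ccr3 read 4.97 and 5.08, under the olfactory level, as were its brain and heart means (4.65 and 4.66). Its remaining difference is thus between readings in the background range. Both arrays that remained still had Kupffer cell marker means above every brain and heart array. They also held the highest and the lowest liver value of Cxcl10.

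**Figure D3:**
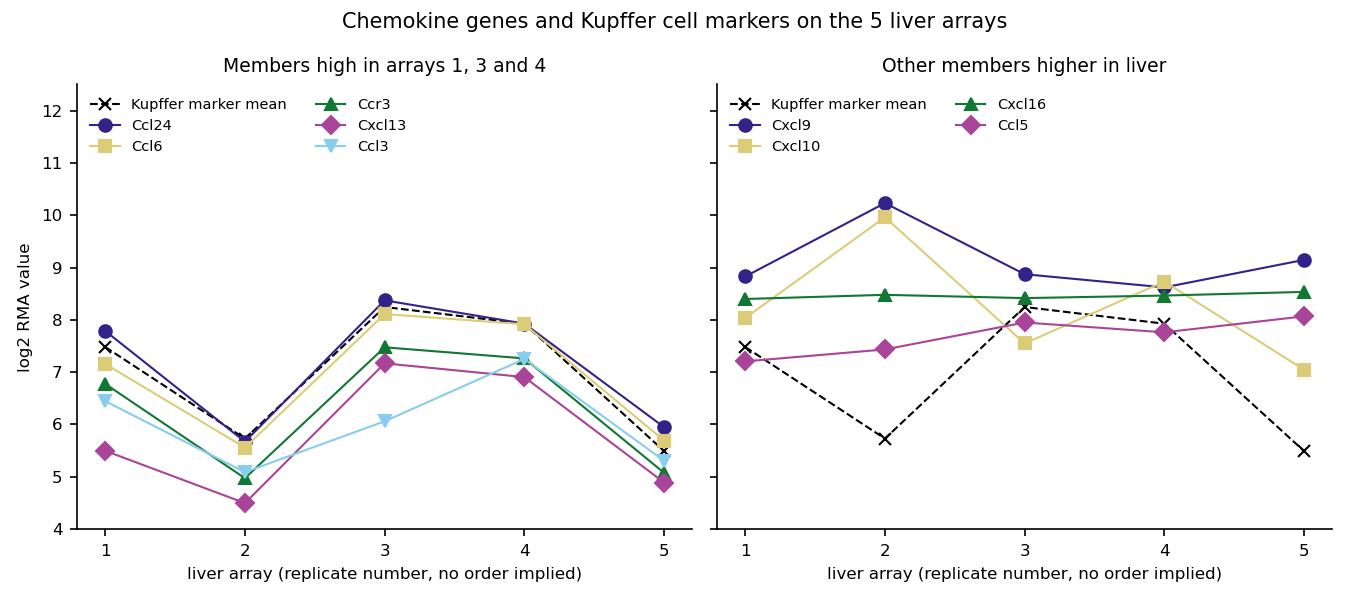
Log2 RMA values on the 5 liver arrays for members with high values on arrays 1, 3 and 4 (left) and for other members higher in liver (right), with the mean of 7 Kupffer cell markers as a dashed line. The lines only join the same gene across arrays; Ccl24 runs from 5.67 to 8.37 with the markers, while Cxcl16 stays between 8.40 and 8.53.

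Many members lie side by side in the genome, with 21 adjacent pairs in the RefSeq gene order. Cxcl10 and Cxcl9, both higher in liver, lie on the same strand of chromosome 5, and Cxcl11, lower in heart, is the next gene to Cxcl10. Cx3cl1 lies between Ccl22 and Ccl17, which stood apart in no tissue. Ccl5 and Ccl6, both higher in liver, have Ccl9 between them.

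Beside the ligands and receptors stand the genes that bind, trim or relay chemokines. Of 59 measured genes of chemokine handling and signalling, 34 stood apart in at least 1 tissue, where 25.5% of all genes did, with 19 higher and 9 lower in liver, 3 higher and 5 lower in brain, and 3 higher and 4 lower in heart. Of all genes, 10.4% and 5.64% were higher and lower in liver, 4.7% and 2.82% in brain and 3.73% and 3.27% in heart. These lists were chosen with earlier results of these data known, and all genes include the 1015 olfactory receptor genes. Setting the shares side by side is thus no test of the lists. Centring on pan-endothelial genes gave 12 higher in liver and 5 higher and 1 lower in heart, and leaving out liver arrays 1, 3 and 4 gave 12 higher in liver and 2 lower in heart. The count higher in brain was 5 without heart array 1. That lower in brain was 3 without liver array 1 or 3 or brain array 4 or 5, and that lower in heart was 2 without brain array 3, 4 or 5 or heart array 3 or 5. All 6 atypical receptors measured were among them.

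Gpr182, an endothelial receptor that binds and clears many chemokines, had log2 values of 11.77, 12.12, 11.52, 11.52 and 11.73 in liver. It was 6.02, 6.51, 7.14, 6.93 and 6.49 in brain and 7.12, 7.08, 7.22, 6.91 and 7.37 in heart. Liver lay far above the others on every array, by 4.59 over heart (SE 0.17, 24.1-fold, larger adjusted p = 9.48e-13). Its brain level differed from heart by -0.52 (adjusted p = 0.0484), a call that ended without any 1 of 11 arrays (adjusted p up to 0.125) and with a replicate block (0.0685). Ackr1, the Duffy receptor that carries chemokines across venules, was 7.54 ± 0.28 in liver, 5.43 ± 0.33 in brain and 4.95 ± 0.17 in heart (SD, n = 5). Liver exceeded brain by 2.12 (at least 3.68-fold, larger adjusted p = 5.76e-09). Brain and heart lay under the olfactory level, and the call of heart below brain, at -0.48 (adjusted p = 0.0441), is between such readings. It ended without any 1 of 9 arrays (adjusted p up to 0.116), with centring (0.161) and with a replicate block (0.0594).

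Ackr2, a scavenger of inflammatory CC chemokines, was 6.15 ± 0.27, 6.07 ± 0.29 and 8.14 ± 0.33 in brain, heart and liver (SD, n = 5). It was higher in liver by 1.99 (3.98-fold, larger adjusted p = 4.2e-08). Ackr4, which scavenges Ccl19, Ccl21 and Ccl25, was 6.05 ± 0.18, 5.90 ± 0.09 and 7.19 ± 0.28 in the same order. It was higher in liver by 1.13 (2.19-fold, larger adjusted p = 7.45e-07). Thus 4 of the 6 atypical receptors were higher in liver and Ackr3 was lower there. Ccrl2, which binds chemerin, was higher in brain by 0.65 (1.57-fold, adjusted p = 0.000462) and lower in heart by -0.45 (adjusted p = 0.00937). The heart difference was -0.14 with centring (adjusted p = 0.305) and -0.43 without liver arrays 1, 3 and 4 (adjusted p = 0.119). Its means were 8.60 ± 0.21, 7.50 ± 0.26 and 7.95 ± 0.10 (SD, n = 5).

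Of 7 chemokine proteases and sheddases, Dpp4, Mmp14, Adam10 and Adam17 stood apart in at least 1 tissue, where 25.5% of all genes did. Dpp4, which trims the amino terminus of Cxcl9, Cxcl10, Cxcl11 and Cxcl12, had log2 values of 12.00, 12.05, 11.79, 11.84 and 11.74 in liver. It was 8.76, 8.37, 7.62, 7.68 and 7.74 in brain and 6.89, 6.34, 5.80, 6.58 and 5.76 in heart. No tissues overlapped. Liver exceeded brain by 3.85 (SE 0.23, 14.4-fold, larger adjusted p = 3.48e-10), and heart differed from brain by -1.76 (3.39-fold lower, adjusted p = 1.89e-05). Mmp14, a membrane-bound metalloprotease, was 6.02 ± 0.14, 6.60 ± 0.21 and 9.55 ± 0.45 in brain, heart and liver (SD, n = 5), higher in liver by 2.95 (7.71-fold, adjusted p = 2.72e-10). Adam10, a sheddase of Cx3cl1 and Cxcl16, was higher in brain by 0.47 (adjusted p = 0.00267; 0.0515 without liver arrays 1, 3 and 4), and Adam17, the sheddase of tumour necrosis factor, was lower in liver by -0.32 (adjusted p = 0.00468).

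The platelet chemokine Pf4 was 5.75 ± 0.53, 6.80 ± 0.21 and 7.75 ± 0.53 in brain, heart and liver (SD, n = 5). It was higher in liver by 0.95 (1.93-fold, adjusted p = 0.00746) and lower in brain by -1.06 (adjusted p = 0.00574). Of the 4 platelet markers measured, 1 was higher in liver. Without liver arrays 1, 3 and 4 the liver difference of Pf4 was 0.76 (adjusted p = 0.155). Ppbp, the other platelet CXC chemokine, stood apart in no tissue.

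**Figure D4:**
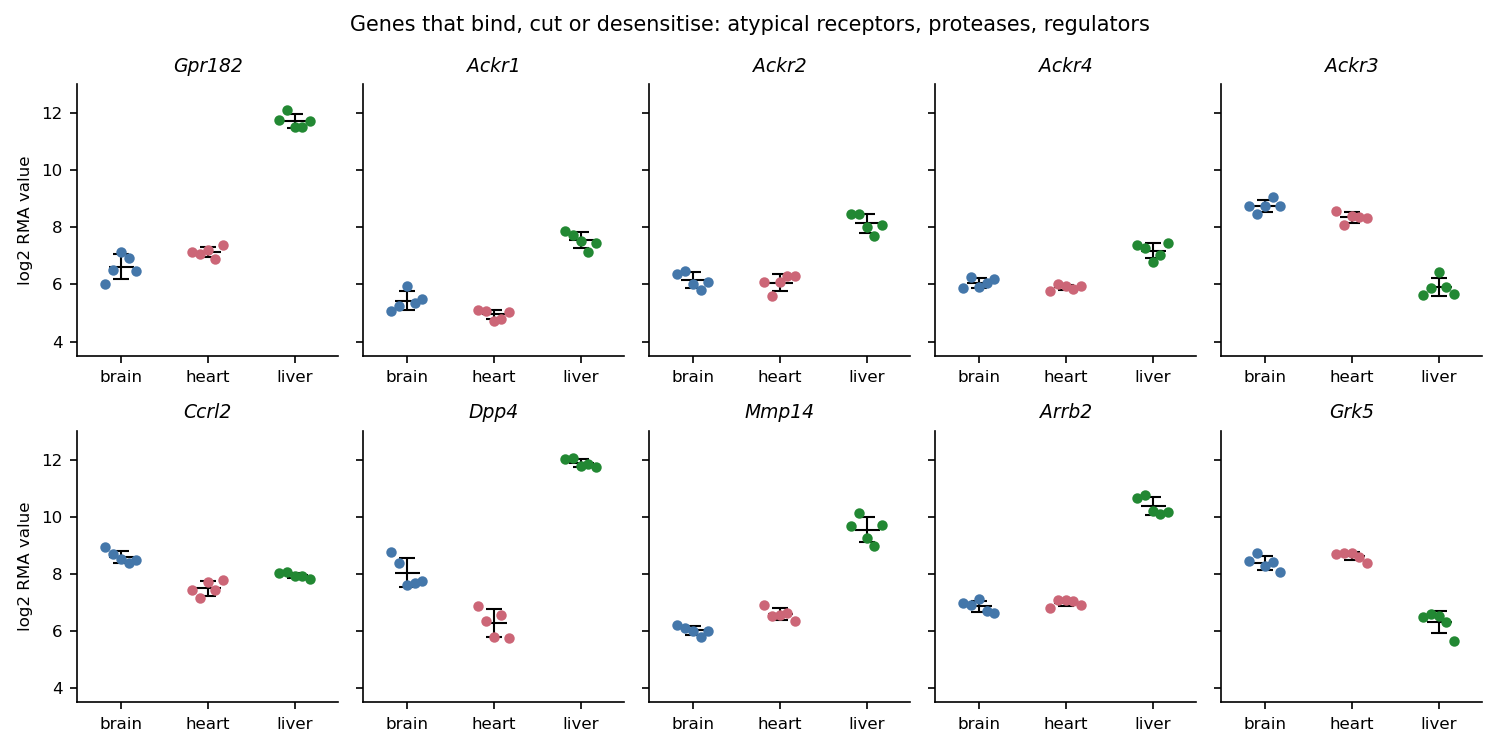
Log2 RMA values of 6 atypical receptors, 2 proteases and 2 regulators of receptor signalling on the 5 arrays of each tissue, with mean ± SD. Gpr182 and Dpp4 lie above 11 on every liver array, and Ackr3 and Grk5 lie lowest in liver.

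Receptor signalling genes moved in both directions in liver. Of 10 desensitisation genes measured, 3 were higher and 4 lower in liver, where 10.4% and 5.64% of all genes were, and Rgs5 was also higher in heart. Arrb2 and Arrb1, the arrestins that uncouple receptors, were higher in liver by 3.39 (10.5-fold, adjusted p = 1.89e-12) and 1.79 (3.46-fold, adjusted p = 6.23e-09). Grk5, a kinase that phosphorylates active receptors, was lower in liver by -2.07 (4.19-fold lower, adjusted p = 1.19e-08). Rgs1, the third gene higher in liver, lay under the olfactory level in every tissue. Its difference of 1.17 (adjusted p = 0.0445) missed the threshold without any 1 of 12 arrays (adjusted p up to 0.108) and with centring (adjusted p = 0.0649), and was 0.04 without liver arrays 1, 3 and 4 (adjusted p = 0.889). Rgs4 and Rgs16 were lower in liver, and Rgs16 missed the threshold without those 3 arrays (adjusted p = 0.0948). Rgs5, which shortens G protein signals and is known as a pericyte marker, was lower in liver by -1.81 (adjusted p = 0.00789) and higher in heart by 1.73 (adjusted p = 0.0169; 0.0504 without brain array 5). Of 10 measured pericyte and smooth muscle markers, that gene included, 3 were higher in heart and 4 lower in liver.

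Of 12 other receptor signalling genes measured, Pik3cg, Rac2 and Dock2 were higher in liver and Elmo1 was lower, where 10.4% and 5.64% of all genes were. Elmo1, which works with Dock2 to activate Rac in migrating cells, was lower in liver by -3.31 (at least 6.22-fold lower, adjusted p = 9.95e-10). Dock2, known mainly from leukocytes, lay under the olfactory level in every tissue, and its reading was higher by 0.83, and without liver arrays 1, 3 and 4 by 0.33 (adjusted p = 0.0796). Rac2, a Rac protein of blood cells, was higher by 0.58 (adjusted p = 0.0029), with centring by 0.27 (adjusted p = 0.117) and without those arrays by 0.33 (adjusted p = 0.176). Pik3cg, the G protein-activated phosphoinositide kinase of leukocytes, was higher by 1.22 (adjusted p = 4.57e-06) and by 0.94 without those arrays (adjusted p = 0.000319). Of 10 G protein subunits 4 stood apart in at least 1 tissue, where 25.5% of all genes did. Gnai1 was higher in heart by 0.75 (1.68-fold, adjusted p = 0.00365), Gng5 lower in heart, Gng11 lower in brain and Gng12 higher in liver. These last 3 calls were lost with centring, where Gng5 turned to 0.05 (adjusted p = 0.709), Gng11 was at -0.27 (adjusted p = 0.124) and Gng12 at 0.14 (adjusted p = 0.383). Gng5 also missed the threshold without any 1 of 8 arrays (adjusted p up to 0.0939). Without liver arrays 1, 3 and 4, Gng5 (adjusted p = 0.126) and Gng12 (adjusted p = 0.086) missed it.

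Of 12 measured enzymes and core proteins of heparan sulfate, on which chemokines are held, 8 stood apart in at least 1 tissue. Of all genes 25.5% did, and several of these 8 calls were lost under the alternatives below. Ext1, which builds the chain, was higher in heart by 1.59 (3.02-fold, adjusted p = 3.73e-09). It was lower in brain by -0.33 (adjusted p = 0.0331), a call lost with centring (adjusted p = 0.391), without those 3 liver arrays (adjusted p = 0.168) and without any 1 of 5 arrays (adjusted p up to 0.097). Hs3st1, a sulfotransferase of the antithrombin-binding site, was higher in brain by 1.10 (at least 1.96-fold, adjusted p = 1.53e-05) and lower in liver by -0.63 (adjusted p = 0.00224). Its heart and liver means, 5.64 and 5.01, both lay under the olfactory level, so the liver difference is between readings in the background range. Hs6st1, another sulfotransferase of the chain, was higher in liver by 1.11 (2.16-fold, adjusted p = 1.21e-06). The core protein Sdc2 was lower in liver, with a mean log2 value of 4.77 against 5.77 in brain (adjusted p = 0.0287), a call that ended without any 1 of 5 arrays (brain 1 or 4, or liver 3, 4 or 5; adjusted p up to 0.0709) and without liver arrays 1, 3 and 4 together (adjusted p = 0.179). Ext2, Ndst2, Hs2st1 and Sdc3 were also higher in liver, and all 4 calls were lost with centring, at 0.17, 0.03, 0.16 and 0.10 (adjusted p = 0.285, 0.782, 0.294 and 0.483). Single arrays ended the call of Ext2 (4 arrays), Ndst2 (6 arrays) and Hs2st1 (2 arrays), and Ndst2 and Sdc3 missed the threshold without liver arrays 1, 3 and 4 (adjusted p = 0.301 and 0.256).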

How the data were processed

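Gene expression was measured on 15 Affymetrix mouse gene arrays, 5 per tissue, from 5 ng of amplified total RNA per pool. The deposited file holds log2 values of 35556 probe sets. Per the submitters' processing notes they were made with RMA in Affymetrix Power Tools. Tool versions and the genome build: not given in the sources used here. The values were used as deposited. Scanner files were not used here. The number of arrays limits the precision.

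Of 23410 annotated probe sets, 21789 carried 1 symbol and 1621 several; the latter and 12146 unnamed ones were left out, which gave 19938 genes, each by its probe set of highest mean. A model with a mean for each tissue was fitted to the 15 arrays by limma 3.58.1 (lmFit, eBayes; 12 residual and 4.75 prior degrees of freedom) in R 4.3.3, tested first on simulated data. P-values were adjusted by Benjamini-Hochberg over all genes within each pairwise contrast. Where a gene has 1 difference it is from the nearer tissue, with the larger of both adjusted p-values. Members and gene lists were chosen with earlier results of these data known. Per-array values are given for members that stood apart in a tissue and for 11 fixed ligands and receptors, with their partners by summary. Beside them stand all atypical receptors and up to 4 genes per other list by the largest difference. Promoters came from RefSeq (GRCm38.p6). Alternatives were a replicate block, a filter on mean level, centring on pan-endothelial genes, a trended robust prior, the mean of probe sets and leaving out arrays.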

Additional observations from a re-analysis of the deposited data

Results flagged for a closer look

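For 18 members, the 15 that stood apart and Ccl2, Cxcl1 and Cx3cr1, the 5 arrays of each tissue were screened for a value far from the other 4. This was found in 5 of 54 groups, where chance gives about 1 in 20. Ccl5 was 6.43 on brain array 1, below the 6.80 to 6.91 of the other brain arrays. Cxcr4 was 6.97 on brain array 4, below 7.76 to 7.89 on the others. Cx3cl1 was 7.02 on heart array 1, above 6.73 to 6.79. Cxcl11 was 5.26 on heart array 3, below 5.68 to 5.79, and 6.86 on liver array 2, above 5.94 to 6.10.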

How the results depend on the processing

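Of the results on single genes, 369 of 428 kept their direction and side of the threshold under other settings and 1025 of 1125 when single arrays were left out. These counts include differences that missed the threshold in the main fit and still missed it. The mean of probe sets leaves the values of a gene with 1 probe set unchanged, and only 2 of the 51 members have more. The counts are thus no measure of how stable the called differences are. A mean filter of 6 gave 2 members lower in heart, 5 higher in liver, 6 lower in brain than in liver and 7 lower in heart than in liver. Centring on pan-endothelial genes gave 0 members lower in heart, 5 higher and 5 lower in liver, 7 lower in brain than in liver, and 27 higher and 5 lower in heart than in liver. It gave 5 pathway genes higher and 1 lower in heart and 12 higher in liver, and it turned the sign of Ccr4 in liver (-0.0009), Ccl11 (0.14), Ccl22 (0.0875) and Cxcr3 (0.0263) in brain minus liver, Ccr1 (0.26) and Ccr2 (0.13) in heart minus liver, and Gng5 in heart (0.0508). This centring moved the median of all genes by -0.09 in brain minus heart, 0.22 in brain minus liver and 0.31 in heart minus liver. The share of all genes called was not counted under the alternative settings. Leaving out liver arrays 1, 3 and 4, chosen after seeing the data, leaves 2 liver arrays. It gave 5 members higher and 1 lower in liver, 7 lower in brain and 6 lower in heart than in liver, 2 pathway genes lower in heart and 12 higher in liver, and turned Ccl6 to -0.11. Ccl26 in heart minus liver ranged from -0.0162 to 0.0619 with single arrays left out and turned sign without liver replicate 1 or heart replicate 5. With single arrays left out, members higher in liver numbered 6 to 12 and lower 3 to 3, members higher in brain 3 to 4 and lower 2 to 2, and members higher in heart 1 to 1 and lower 1 to 2. Between pairs, 4 to 5 were higher and 3 to 3 lower in brain than in heart, 5 to 7 and 11 to 14 in brain than in liver, and 3 to 4 and 7 to 15 in heart than in liver. Pathway genes numbered 3 to 5 and 3 to 5 in brain, 2 to 3 and 2 to 4 in heart, and 16 to 20 and 8 to 9 in liver. The replicate numbers share no stated batch, and same-numbered arrays correlated in their deviations at -0.000530 to 0.183 in brain and heart, 0.0498 to 0.170 in brain and liver and 0.0418 to 0.204 in heart and liver. With the replicate block, 5 members were higher in heart than in liver in place of 3, and the other member counts stayed within 1.5 times. In brain and heart 3 of 5 arrays correlated best with their own number, in brain and liver 4 and in heart and liver 2. The cause of these shifts was not tested.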

Other observations

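Other cell markers were measured as background to these genes. None of the 8 granulocyte markers stood apart in a tissue. Of 5 B cell, 6 dendritic cell, 7 microglial, 6 stellate cell, 7 oligodendrocyte and 5 lymphatic endothelial markers measured, 1, 2, 2, 1, 1 and 2 were higher in liver. Of 8 astrocyte markers 1 was lower in brain, and of 8 neuronal markers 1 was lower in liver.

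Of 14 immediate-early genes, Nr4a1 and Egr2 were lower in liver, by -1.60 (adjusted p = 0.00304) and -1.51 (adjusted p = 0.0387). Digestion was at room temperature in liver alone, so tissue and handling cannot be told apart.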
